A study of Mus musculus with 8 samples.

Results

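The kappa light chain probe sets of 8 mouse B cell arrays were examined, that is, every probe set, controls excluded, with an annotated gene symbol that begins with Igk. There were 36 such probe sets among 12422. They name 20 distinct variable (V) genes of the kappa locus on chromosome 6, the constant region gene Igkc, the joining gene Igkj1 and the locus as a whole (Igk). Of the 36, 27 carry 1 symbol and 9 several, 5 name Igkc beside other genes, and 1 names a gene outside the locus (Asb2). By suffix, 16 end in _at, which marks a set designed for a single target, 17 in _f_at, a set whose probes match members of a sequence family, 2 in _r_at and 1 in _s_at.

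Each array held total RNA of sorted B cells pooled from 4 to 10 mice, and all mice were F1 offspring of the QM strain and C57BL/6 (B6). Resting cells were sorted from mice that had not been immunised, as B220-positive cells that lacked GL7. Germinal centre cells, sorted as positive for both markers, were taken during 3 responses to the hapten NP, and each of the 4 groups has 2 arrays. For the T-independent group (TI day 4), mice were given 30 µg NP-Ficoll and sorted on day 4. The primed T-dependent group (TD day 4) received 50 µg alum-precipitated chicken gamma-globulin with 1000000000 heat-killed B. pertussis bacteria, was challenged 5 weeks later with 50 µg soluble NP-CGG, and was sorted on day 4. The unprimed T-dependent group (TD day 10) received 50 µg alum-precipitated NP-chicken gamma-globulin with the same number of bacteria and was sorted on day 10. The labels state that replicates are biological, each from its own pool of mice.

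A mouse B cell carries a heavy chain paired with either a kappa or a lambda light chain. For a kappa chain, the cell joins a single V gene of the locus to a J gene, and the joined segment is spliced to the constant region, so a V probe set reads only cells that use that V gene or a close relative, whereas constant region probes read every kappa-positive cell. As background from knowledge of the strain and not from the labels, QM mice carry a rearranged heavy chain knock-in that binds NP when paired with a lambda light chain, and their own kappa loci are inactivated. In the F1, functional kappa genes thus come from the B6 parent, and both resting and germinal centre groups share this genotype.

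The deposited values are linear intensities in which every array had the same trimmed mean (200.2), so a probe set is read relative to the rest of its array. Each probe set was compared with itself across arrays, and levels were set against each other between probe sets only to choose which sets to describe and to sum lists of markers. Array medians lay between 77 and 89 units. For the tests, values under a floor of 81, the median of all values, were set to it, log2 was taken, and 33 of the 36 kappa probe sets, those above the floor on at least 2 arrays, were tested among 7253. A fold with an array of its dimmer group at the floor is given as at least that fold. B cell identity was seen on all arrays, with 8 or 9 of 10 probe sets of B cell markers above the floor, while 1 or 2 of 7 probe sets of T cell markers were. Of the latter, Cd4 was above the floor on all 8 arrays (292 to 710) and Cd3g on 2 (109 and 92), and Cd3e, Cd3d, Cd8a and Thy1 were under it on every array. The summed intensity of the germinal centre markers was 1025 to 1330 in resting arrays, 4501 to 5650 in the TD arrays and 2789 to 3013 in TI. These sums include negative values of 1 Mef2b set, -1827 and -1270 in resting, -702 to -185 in TD and -471 and -482 in TI. Much of the gap between the resting and TI sums came from that set. Bcl6 read 452 and 438 in resting and 846 and 1034 in TI, whereas Gcsam read 154 and 101 in resting and 156 and 131 in TI. Both Lmo2 sets read lower in TI than in resting, at 459 and 383 against 845 and 933, and 145 and 162 against 330 and 268. Of 7 germinal centre marker sets tested, 2 were higher and 2 lower in TI than in resting.

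The arrays of a group did not agree equally well for these probe sets. In resting B cells, replicate 1 read higher than replicate 2 in 34 of the 36, with a median log2 difference of 0.76 over the 33 tested (1.69-fold), against 0.07 over all probe sets tested. In TD day 10, replicate 2 was higher in 32 of 36, by a median of 1.37-fold. In TD day 4 and TI day 4 the median gap between replicates was 1.03-fold and 1.10-fold. Results against resting B cells are therefore also given without either resting array.

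**Figure D1:**
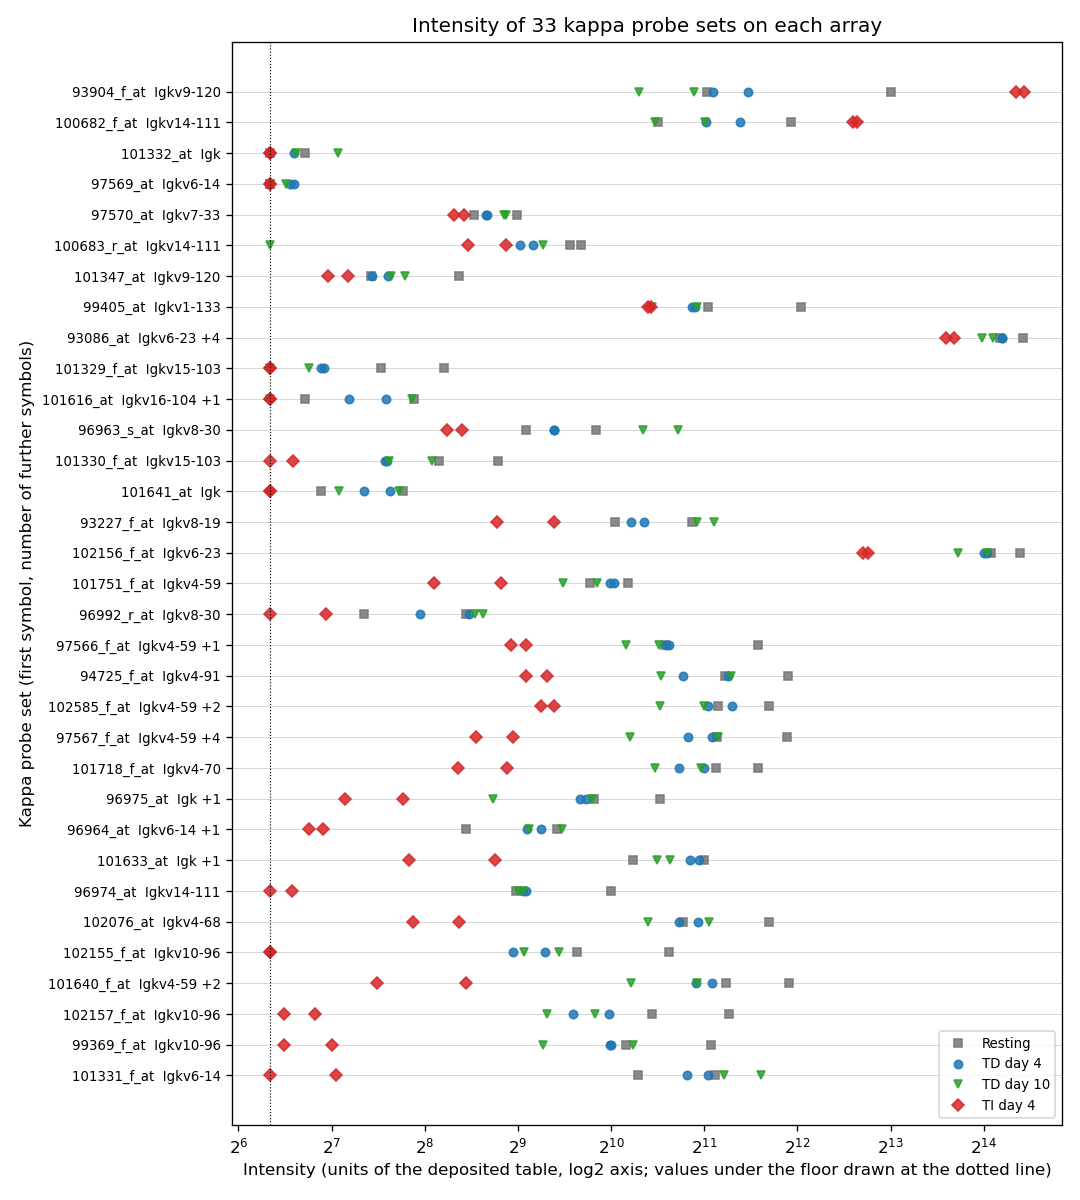
Intensity (log2 axis, units of the deposited table) of the 33 tested kappa probe sets, 1 row each, on the 8 arrays, with colour and shape for the 4 groups and values under 81 drawn at the dotted line. Both TI day 4 arrays lie below all other arrays in 28 rows and above them in the top 2 rows, 93904_f_at and 100682_f_at.

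The T-independent germinal centre B cells stood apart. Both TI day 4 arrays read below all 6 other arrays in 28 of the 33 tested kappa probe sets (84.9%), a pattern found in 7.83% of all probe sets tested. In 2 of the 33 they read above all 6 other arrays (7.4% of all probe sets tested). The median log2 intensity of the 33 was 8.24 and 7.87 on the TI arrays, 9.99 on each TD day 4 array, 9.48 and 10.24 in TD day 10, and 10.87 and 10.04 in resting B cells. In pooled RNA, fewer cells using a gene and less of its RNA per cell cannot be told apart.

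The comparison of TI with TD day 4 set responses of comparable kinetics side by side. Of the 33 kappa probe sets 12 were lower in TI and 0 higher by limma (adjusted p under 0.05), where 0.717% of all probe sets tested were called lower, 0.731% higher and 1.45% in either direction. An unadjusted p under 0.05 was reached by 25 of the 33, and the share over all probe sets at that threshold was not counted. The median log2 difference of the 33 was -1.55, and -0.01 over all probe sets tested. In 31 of them both TI arrays lay under both TD day 4 arrays (26.3% of all probe sets tested), and in 2 above (23.1%).

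Igkv6-14, a V gene near the J genes, gave the largest difference among the 33. Its family probe set 101331_f_at read 2219 and 1250 on the resting arrays, 1799 and 2101 in TD day 4, 2364 and 3118 in TD day 10, and 132 and 9 in TI day 4. Both TI arrays lay far under the other 6, which overlapped among resting and TD day 4. It was at least 18.8-fold lower in TI than in TD day 4 (log2 difference -4.23 ± 0.36 SE, adjusted p = 0.0099) and at least 26.3-fold lower than in TD day 10 (adjusted p = 0.0055). A second probe set, 96964_at, which names Igkv6-14 and Igkv4-53, read 683 and 349, 547 and 606, 555 and 711, and 120 and 108 in the same order of groups, a 5.06-fold fall in TI against TD day 4 (adjusted p = 0.034). The third set that names Igkv6-14, 97569_at, stayed near the floor and did not show the fall: it read 62 and 65, 97 and 94, 59 and 91, and 67 and 77, with a log2 difference of -0.24 that did not pass. It was also the 1 kappa set of 33 in which both TD day 4 arrays lay above the other 6 (3.27% of all probe sets tested), and in 0 of 33 did they lie below (3.45%).

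Igkv10-96 is named alone by 3 family probe sets, and all 3 fell in TI against TD day 4. In 102157_f_at the arrays read 2463 and 1393 in resting, 1006 and 770 in TD day 4, 636 and 910 in TD day 10, and 113 and 90 in TI, an 8.73-fold fall against TD day 4 (adjusted p = 0.018). In 99369_f_at they read 2161 and 1141, 1022 and 1016, 619 and 1206, and 128 and 90, a 9.49-fold fall (adjusted p = 0.029). In 102155_f_at they read 1577 and 796, 494 and 628, 534 and 695, and -74 and -47, a TI level at least 6.88-fold under TD day 4 (adjusted p = 0.026). In all 3 the TI arrays lay at or near the floor and resting replicate 1 was highest, while the order of the TD groups differed between the sets. Sets that share a gene are not independent of each other.

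The V4 family formed the largest group, with 8 tested probe sets that name only V4 genes, some together with Igkc. All 8 had a lower mean in TI than in TD day 4, between -3.03 and -1.55 on the log2 scale, and 4 of them passed. Igkv4-68 (102076_at) read 3303 and 1745 in resting, 1692 and 1948 in TD day 4, 1351 and 2114 in TD day 10, and 330 and 234 in TI, a fall of 6.53-fold against TD day 4 (adjusted p = 0.034). Igkv4-70 (101718_f_at) read 3061 and 2227, 1696 and 2046, 1423 and 1997, and 472 and 329 in the same order, a 4.73-fold fall (adjusted p = 0.028). In both sets the TI arrays lay below all others and the other groups overlapped or nearly met. The set for Igkv4-59, Igkv4-72 and Igkc (101640_f_at) read 3835 and 2415, 1924 and 2169, 1186 and 1944, and 180 and 347, an 8.17-fold fall (adjusted p = 0.032). The set for Igkv4-59, Igkv4-70 and Igkc (102585_f_at) read 3327 and 2266, 2104 and 2524, 1473 and 2046, and 668 and 606, a fall of 3.62-fold (adjusted p = 0.035). The 8 sets share sequence and may read the same transcripts.

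The set 93086_at, which names Igkc, Igkj1, Igkv6-23, Igkv4-53 and Igkv8-30, read 21899 and 18523 in resting, 18733 and 18782 in TD day 4, 16156 and 17495 in TD day 10, and 12366 and 13149 in TI. Both TI arrays were lowest, yet the 1.47-fold difference from TD day 4 did not pass (log2 difference -0.56, 95% interval -0.94 to -0.17 without adjustment, adjusted p = 0.19), and it passed with a trended and robust prior (adjusted p = 0.046). Igkv6-23 (102156_f_at) read 21428 and 17269, 16379 and 16768, 13571 and 16785, and 6898 and 6664, and fell 2.44-fold in TI against TD day 4 (adjusted p = 0.035). The highest value on an array lay between 19379 and 26623 units, close to the readings of 93086_at, and compression of the signal at that level was not tested.

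Of the probe sets that name the locus as a whole, 2 name no other gene. The set 101641_at (Igk) read 218 and 118 in resting, 197 and 163 in TD day 4, 135 and 212 in TD day 10, and 37 and 33 in TI. Its TI arrays were both under the floor, and the difference from TD day 4 did not pass (adjusted p = 0.21). The set 101332_at (Igk) read 105 and 38, 81 and 97, 98 and 134, and 22 and 19, again with both TI arrays lowest and no call (adjusted p = 0.90 against TD day 4). The set 101633_at, which names Igk and the ubiquitin ligase subunit gene Asb2, read 2037 and 1205, 1962 and 1837, 1436 and 1582, and 433 and 227, and was 6.06-fold lower in TI than in TD day 4 (adjusted p = 0.035).

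**Figure D2:**
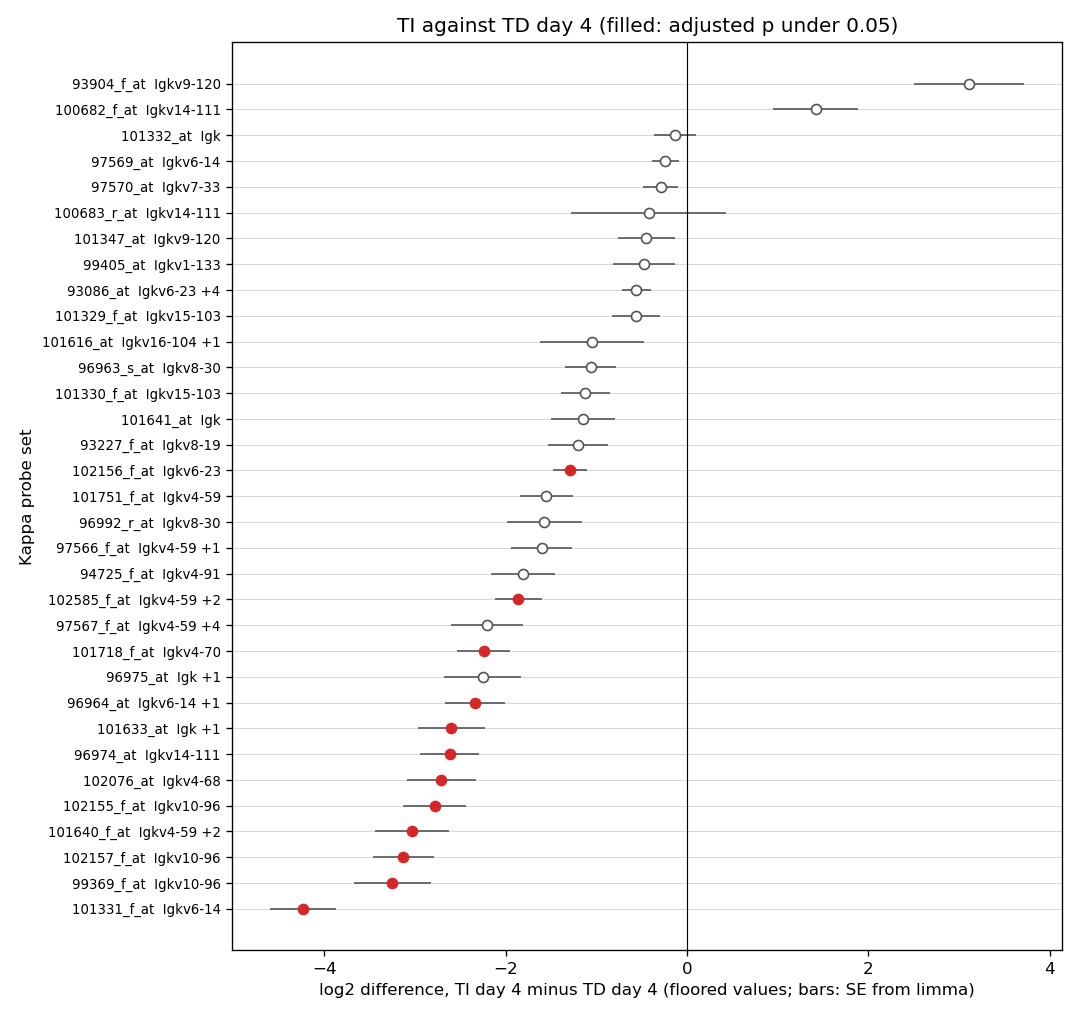
Difference in mean log2 intensity, TI day 4 minus TD day 4, for the 33 tested kappa probe sets, with the SE from limma as bars and filled points for adjusted p under 0.05. The 12 filled points all lie left of 0, from -4.23 to -1.29, and 93904_f_at and 100682_f_at lie to the right at 3.11 and 1.42.

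The 12 calls rest on small groups. Without TD day 4 replicate 1 or 2 or TI replicate 2 the count was 0, where 0.0138%, 0.0965% and 0% of all probe sets tested were called. Without TD day 10 replicate 1 or 2 it was 1 (0.303% of all each) and without TI replicate 1 it was 1 (0.386%), while it was 0 without a filter (0.338%) and 0 with only the 4 arrays compared (0%).

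Against this pattern, 2 family probe sets had their highest values in TI. Igkv9-120 by 93904_f_at read 8195 and 2090 in resting, 2181 and 2835 in TD day 4, 1261 and 1901 in TD day 10, and 22145 and 20776 in TI. Both TI arrays lay above all others, and resting replicate 1 lay well above replicate 2. The 13.9-fold difference from TD day 10 passed (log2 difference 3.79 ± 0.61 SE, adjusted p = 0.037). The 8.63-fold difference from TD day 4 did not (log2 difference 3.11 ± 0.61 SE, adjusted p = 0.075), but it passed without resting replicate 1 or 2 (adjusted p = 0.029 each), whose gap enters the shared estimate of the spread. The 5.18-fold difference from resting did not pass (adjusted p = 0.069), and was 3.36 on the log2 scale without resting replicate 1 (adjusted p = 0.013) and 1.39 without replicate 2 (adjusted p = 0.072). With a trended and robust prior and all arrays it passed (adjusted p = 0.045).

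Igkv14-111 by 100682_f_at read 3900 and 1447 in resting, 2075 and 2672 in TD day 4, 1418 and 2066 in TD day 10, and 6199 and 6383 in TI. Both TI arrays again lay above all others. The differences of 2.67-fold from TD day 4, 3.68-fold from TD day 10 and 2.65-fold from resting did not pass (adjusted p = 0.24, 0.11 and 0.14). Without resting replicate 1 or 2 the difference from TD day 10 passed (adjusted p = 0.041 each), and without resting replicate 1 so did that from resting (adjusted p = 0.029).

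The other probe sets for the same V genes differed among themselves. They were chosen for description after their values were seen. For Igkv9-120, 101347_at read 330 and 171 in resting, 195 and 173 in TD day 4, 199 and 221 in TD day 10, and 125 and 145 in TI, with no call in any comparison. The third set for Igkv9-120, 99396_at, had its highest values in TI, at 64 and 173 against -75 to 47 elsewhere, but was above the floor on 1 array and was not tested. For Igkv14-111, 96974_at read 1023 and 506, 545 and 531, 513 and 531, and 95 and 80, and was at least 6.13-fold lower in TI than in TD day 4 (adjusted p = 0.026). The third set for Igkv14-111, 100683_r_at, read 752 and 820, 518 and 572, -126 and 615, and 469 and 352, with no call. The probe sets of a V gene thus differed in direction, and a family set can read relatives of the gene it names. Which transcripts 93904_f_at and 100682_f_at read was not tested.

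**Figure D3:**
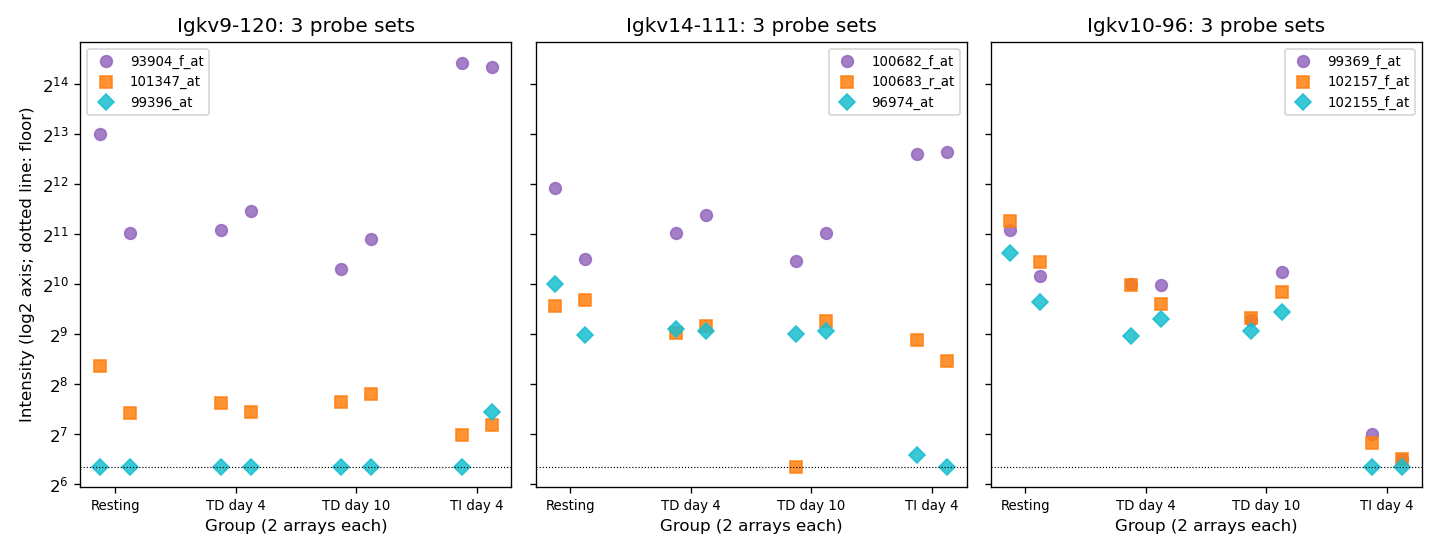
Intensity (log2 axis) of the 3 probe sets annotated to Igkv9-120, to Igkv14-111 and to Igkv10-96 on the 2 arrays of each group, with values under the floor of 81 drawn at the dotted line. In TI the 93904_f_at and 100682_f_at points reach 22145 and 6383 at most, while 96974_at and the 3 Igkv10-96 sets lie between the floor and 128.

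Set against TD day 10, 13 of the 33 kappa probe sets were lower in TI and 1, 93904_f_at, was higher, where 1.2% of all probe sets tested were called in each direction and 2.4% in either. In 28 both TI arrays lay under both TD day 10 arrays (31.5% of all probe sets tested), and in 2 above (21.3%). The 2 TI arrays are the same as in the comparison with TD day 4. The median log2 difference of the 33 was -1.45, and -0.08 over all probe sets. Igkv8-30, by 96963_s_at, read 917 and 545 in resting, 669 and 668 in TD day 4, 1300 and 1685 in TD day 10, and 303 and 338 in TI, a 4.63-fold fall in TI against TD day 10 (adjusted p = 0.018). The count was 0 without TD day 10 replicate 1 or 2 or TI replicate 2, where 0.0551%, 0.221% and 0.317% of all probe sets tested were called. It was 1 without TI replicate 1 (0.62%), 2 without TD day 4 replicate 1 or 2 (1.08% each), 1 without the filter (0.837%) and 0 with only the arrays compared (0%).

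Against resting B cells, 19 of the 33 were lower in TI and 0 higher, where 3.98% of all probe sets tested were called lower, 5.42% higher and 9.4% in either direction. In 30 both TI arrays lay under both resting arrays (24.8% of all probe sets tested), and in 3 above (23.6%). The median log2 difference was -1.53, and -0.02 over all probe sets. Igkv10-96 gave the largest falls among the exact folds, 18.4-fold by 102157_f_at (adjusted p = 0.0018) and 14.6-fold by 99369_f_at (adjusted p = 0.0047). Igkv6-14 by 101331_f_at was at least 16.1-fold lower (adjusted p = 0.0027). Igkv1-133 by 99405_at, the V gene lying farthest from the J genes among those tested, read 4217 and 2102 in resting, 1908 and 1871 in TD day 4, 1386 and 1939 in TD day 10, and 1374 and 1347 in TI, a 2.19-fold difference from resting that did not pass (adjusted p = 0.11) except without resting replicate 2 (adjusted p = 0.028). The count of 19 lower was 8 without TI replicate 2 (4.25% of all probe sets called), and 0 with only the arrays compared (1.38%). The median log2 difference was -1.35 without resting replicate 1 and -1.87 without resting replicate 2.

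The T-dependent groups were also set against resting B cells and against each other. In TD day 4, 0 of 33 kappa probe sets passed against resting by limma, where 9.42% of all probe sets tested were called (5.83% higher, 3.58% lower). In 12 both TD day 4 arrays lay under both resting arrays and in 1 above, each pattern being found in 24.9% of all probe sets tested. An unadjusted p under 0.05 was reached by 4 of the 33, with no share over all probe sets counted at that threshold. All 4 were lower, the 2 sets of Igkv15-103 and 2 of Igkv10-96, with log2 differences from -1.07 to -0.89. The median log2 difference of the 33 was -0.37, and it was 0.06 without resting replicate 1. Without resting replicate 2 the median was -0.72.

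In TD day 10, 1 of 33 was lower than in resting, 101329_f_at for Igkv15-103, where 10.9% of all probe sets tested were called (6.45% higher, 4.44% lower). In 14 both TD day 10 arrays lay under both resting arrays (22% of all probe sets tested), and in 4 above (27.8%). Both resting arrays lay above the other 6 in 10 of the 33 (12.1% of all probe sets tested), and below them in 0 (12.7%). The set called lower read 296 and 185 in resting, 121 and 118 in TD day 4, 108 and 19 in TD day 10, and -85 and -78 in TI, at least 2.50-fold lower in TD day 10 than in resting (adjusted p = 0.029). The median log2 difference of the 33 was -0.47, and lay between -0.93 and -0.14 over the alternatives. The other set for Igkv15-103, 101330_f_at, did not pass there (log2 difference -0.62). The median of the 33 was -0.93 without resting replicate 2 and -0.14 without resting replicate 1. The 1 call depended on which arrays were fitted.

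Between the T-dependent groups, 0 of 33 passed by limma, as did 0% of all probe sets tested. An unadjusted p under 0.05 was reached by 1 of 33, 96963_s_at for Igkv8-30, with no share over all probe sets counted at that threshold. In 8 both TD day 10 arrays lay above both TD day 4 arrays (23.2% of all probe sets tested), and in 9 below (17%). The Igkv8-30 set was 2.21-fold higher in TD day 10 than in TD day 4 (log2 difference 1.15 ± 0.28 SE, 95% interval 0.47 to 1.82 without adjustment, adjusted p = 0.57). Both TD day 10 arrays lay above all 6 other arrays in 4 of the 33 (6.44% of all probe sets tested): 96963_s_at and 96992_r_at for Igkv8-30, 93227_f_at for Igkv8-19, and 101331_f_at for Igkv6-14. They lay below the other 6 in 1 (4.84%), 93904_f_at. Igkv8-19 read 1873 and 1055 in resting, 1186 and 1304 in TD day 4, 2195 and 1947 in TD day 10, and 672 and 437 in TI, and its 1.66-fold difference between the T-dependent groups did not pass (adjusted p = 0.96). These 3 V genes hold places 131, 143 and 148 among the 168 kappa genes of the locus. None of the 4 sets passed in TD day 10 against TD day 4 or resting, and other sets in that stretch differed. Igkv6-23, at place 139, read 13571 and 16785 in TD day 10 and 21428 and 17269 in resting. For Igkv6-14, 97569_at read 59 and 91 in TD day 10 and 97 and 94 in TD day 4.

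Read by gene order, called falls were spread along the locus. Among 25 tested probe sets that name a single V gene, they were found from Igkv14-111, at place 31 in the order of 168 kappa genes in the RefSeq table (GRCm38.p6), to Igkv6-14 at place 148. The 2 positive differences were at places 20 (Igkv9-120) and 31 (Igkv14-111), in the part of the locus far from the J genes, and neither passed. Other sets of the same 2 genes had negative log2 differences. These were -0.45 at 101347_at (place 20), and -2.62 at 96974_at, which was called, and -0.42 at 100683_r_at (both place 31). The neighbouring Igkv1-117 at place 25 read -2.25 on the log2 scale and did not pass (adjusted p = 0.069).

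**Figure D4:**
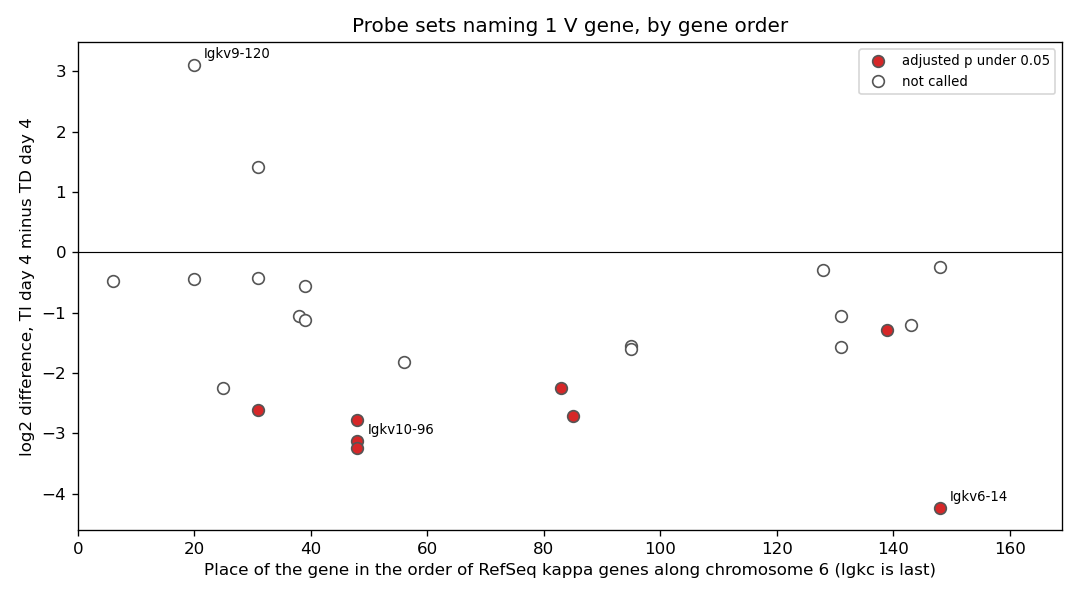
Difference in mean log2 intensity, TI day 4 minus TD day 4, against the place of the V gene in the order of 168 kappa genes, for 25 tested probe sets that name a single V gene, with filled points for adjusted p under 0.05. Filled points are spread over the order, the lowest being Igkv6-14 at -4.23. The 2 points above 0 lie at places 20 and 31, where other points lie below 0.

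Both main kinds of probe set showed the lower values in TI. Of 17 family sets (_f_at) 15 had a negative difference between TI and TD day 4 and 8 passed, with a median of -1.81, and of 13 tested _at sets all 13 had a negative difference and 4 passed, with a median of -1.05. The difference between the suffixes was not tested.

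At 2 lambda probe sets the difference had the opposite direction. The set that names Iglc1 and Iglv1 (93638_s_at), a lambda constant region and a lambda V gene, read 2919 and 2860 in resting, 2832 and 3894 in TD day 4, 1246 and 1349 in TD day 10, and 20316 and 21989 in TI, 6.37-fold higher than in TD day 4 (adjusted p = 0.0067). Of 8 probe sets of lambda and surrogate light chain genes 2 rose in TI against TD day 4 and 0 fell, with a median log2 difference of -0.06. The other riser was Igll1 (99429_at, 2.61-fold), which encodes a surrogate light chain part. A second set of each gene was not called. For Iglc1, 93639_r_at read 357 and -28 in TI against 561 and 316 in TD day 4. For Igll1, 99428_at read 129 and 50 against 160 and 123. Over all probe sets tested 0.731% rose and 0.717% fell. Of 26 tested heavy chain probe sets 0 rose and 2 fell, with a median log2 difference of -0.44. Sets annotated to the IgM constant region gene Ighm differed in direction. It read 15985 and 17178 in TI against 9290 and 10225 in TD day 4 at 93584_at (adjusted p = 0.11), and 26623 and 26193 against 14908 and 17256 at 93583_s_at. It read 1013 and 858 against 1717 and 2316 at 100362_f_at, and 25 and -11 against 606 and 553 at 100377_f_at.

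Genes that act on immunoglobulin transcription and on the receptor were compared between TI and TD day 4 in a list chosen with earlier results of these data known. Of its 28 tested probe sets 1 rose and 0 fell, beside 0.731% and 0.717% of all probe sets tested. The riser was Jchain, the chain that joins immunoglobulin polymers, at 7347 and 9356 in TI and 2266 and 2770 in TD day 4 (3.31-fold, adjusted p = 0.021). Xbp1, a transcription factor of secretory cells, read 2072 and 2951 in TI and 810 and 761 in TD day 4, a difference that did not pass (adjusted p = 0.075). Pou2af1, the coactivator that acts with octamer-binding factors at immunoglobulin promoters, read 3635 and 4245 in TI and 4533 and 3639 in TD day 4 at its set 93915_at. Cd79a, the signalling partner of the receptor, read 4554 and 5183 against 4635 and 5621.

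Other measures also differed between the groups. The summed intensity of 8 plasma cell marker probe sets was 10316 to 13903 in TI, 3504 to 4167 in TD day 4, 2761 to 3496 in TD day 10 and 2197 to 2225 in resting, with 5 or 6 of 8 above the floor in TI and 3 to 5 elsewhere. Jchain made up most of the TI sum (7347 and 9356). Of the other plasma cell markers, Tnfrsf17 read 563 and 805 in TI and 216 to 296 elsewhere, and Xbp1 2072 and 2951 against 497 to 856. Cd28 read 103 and 140 in TI and 46 to 74 elsewhere, and Irf4 125 and 516 in TI and 292 and 511 in resting. Prdm1 was above the floor on 1 array, in TD day 10, and Sdc1 on 1 TI array at 1 of its 2 sets. Of 5 sets tested, 1 was higher in TI than in TD day 4 (0.731% of all probe sets tested). Against TD day 10 it was 2 (1.2%) and against resting 3 (5.42%), with 0 lower in each. The sum of 15 macrophage marker sets was 3861 to 4897 in TI, 655 to 1033 in TD day 4, 2 to 636 in TD day 10 and 2902 to 3247 in resting. These sums include negative values, so a low sum is not a level of marker RNA. C1qc read -555 to -207 on the germinal centre arrays and 177 and 171 in resting. In TI 1 Apoe set made up most of that sum, at 4213 and 3371, and C1qa read 130 and -13 there against 708 and 597 in resting. Of the 15, 4 or 5 were above the floor on the germinal centre arrays and 9 on the resting arrays. The ratio of 3' to 5' Gapdh control signal, which reflects RNA integrity, was 1.24 and 1.68 in TI, 0.981 and 0.954 in TD day 4, 0.836 and 0.896 in TD day 10, and 0.867 and 1.59 in resting. The Actin ratio was 1.59 and 1.91 in TI, 1.48 and 1.33 in TD day 4, 1.24 and 1.36 in TD day 10, and 1.55 and 1.88 in resting. For both controls the TI and resting values overlapped. The resting arrays had summed red cell marker intensities of 45568 to 50142 against 763 to 2306 in the germinal centre arrays. The summed neutrophil markers were also highest in resting, with sums of 5954 to 6292 in resting against 784 to 2170, and S100a8 read 2833 and 3279 against 169 to 938. The neutrophil sums include negative values of Ngp, -214 and -137 in resting and -782 to -379 elsewhere. The part of these measures in the kappa results was not tested.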

How the data were processed

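The deposited table gives an intensity for each of 12488 probe sets on 8 Affymetrix arrays, as processed by the authors (software and scaling: not given in the sources used here). Total RNA was extracted with RNAzol and biotin-labelled, per the labels' protocols. Of the values 30.1% are 0 or below, so background or mismatch signal was read as already subtracted. No further normalization was applied. Gene names come from the platform annotation, updated through Entrez IDs, which changed 0 of the kappa symbols (10855 probe sets have 1 symbol, 396 several, 1237 none). Sequences of the kappa genes were not used here.

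After 66 control probe sets were set aside, 7253 above the floor of 81 on at least 2 arrays were fitted in limma 3.58.1 (R 4.3.3) with 1 model of the 4 groups, empirical Bayes variances (4 residual and 2.2 prior degrees of freedom), two-sided tests and Benjamini-Hochberg adjustment in each of 6 comparisons. The method was tested on simulated data. Named kappa probe sets (18) were those naming only Igk or Igkc, the 12 called with the smallest p, and the 5 with the highest mean and with the widest range of group means. Probe sets named outside this rule were chosen after their values were seen. Members and lists were chosen with earlier results of these data known. The alternatives were the floor, a pseudocount, normalization, the filter, a replicate block, the arrays fitted, the prior, the members, and leaving out each array. Precision is limited by having 2 arrays a group.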

Additional observations from a re-analysis of the deposited data

How the results depend on the processing

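In the comparisons of TI with TD day 4, TD day 10 and resting (12, 14 and 19 kappa probe sets called), floors at the 40th or 60th percentile, a pseudocount, quantile or median scaling, a stricter filter and a trended prior kept the counts within 1.5 times. Without a filter they were 0, 1 and 12, where 0.338%, 0.837% and 3.49% of all probe sets were called. With only the arrays compared they were 0, 0 and 0 (0%, 0% and 1.38% of all). Among plain _at sets that name only kappa genes, of which 12 were tested, they were 3, 3 and 4 (1.45%, 2.4% and 9.4% of all). Leaving out each array in turn gave 0 to 12, 0 to 17 and 8 to 23. In TD day 10 against resting (1 called) the count was 0 with the floor at the 40th percentile (8.09% of all called) and with a pseudocount (9.98%). It was also 0 without a filter (4.68%), with only the arrays compared (2.69%) and among plain _at sets (10.9%). It was 2 with quantile normalization, a common median or the trended prior, and 0 to 6 without each array. In TD day 4 against resting (0 called) it was 1 with quantile normalization (9.43% of all). The median log2 difference there lay between -0.72 and 0.06 with each array left out in turn. Between the TD groups it was 0 under each alternative. With the replicate block the counts of TI against TD day 4 and TD day 10 were 3 and 7, where 0.634% and 1.48% of all probe sets were called. The block kept the other counts (19 in TI against resting, with 7.13% of all called). Same-numbered arrays did not pair, their deviations correlating between -0.217 and 0.121. Crossed numbers were an alternative chosen after seeing the data. With them the counts were 1 in TI against TD day 4 (0.372% of all called), 0 between the TD groups (0%) and 1 in TD day 10 against resting (8.26%). The causes were not tested. Several alternatives cannot change a log2 difference: the filter, the replicate block, the prior, fitting only the arrays compared, and leaving out an array of another group. Under these the direction was kept by construction, and the called differences were picked from these same data. Of 841 recomputed values of the 46 called differences, 0 changed direction, 535 still passed and 306 did not.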

Other observations

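The 3 kappa probe sets that were not tested were near or under the floor. For Igkv1-135, 101348_at read between -19 and 106, with 1 array, TD day 10 replicate 2, above 81. For Igkv2-112, 96969_at read between -422 and 175, with TI replicate 1 above the floor at 175 and TI replicate 2 at -104. For Igkv9-120, 99396_at read 64 and 173 in TI and between -75 and 47 elsewhere. Igkv7-33, by 97570_at, varied least among the tested sets above the floor on all arrays, at 507 and 368 in resting, 406 and 403 in TD day 4, 460 and 468 in TD day 10, and 318 and 344 in TI. The 2 family sets with their highest values in TI shared their 3 highest arrays outside TI, with 8195, 2835 and 2181 for 93904_f_at and 3900, 2672 and 2075 for 100682_f_at, in resting replicate 1, TD day 4 replicate 2 and TD day 4 replicate 1.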
